A study of Mus musculus with 4 samples.

Results

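The antioxidant genes described here are Nfe2l2, which encodes the transcription factor NRF2, and 9 genes known as its targets, Nqo1, Hmox1, Gclc, Gclm, Txnrd1, Srxn1, Prdx1, Gsr and Gsta4. They were chosen by name, and every probe set that the platform annotation assigns to a member alone was used, which gave 16 of 22690 probe sets and 9 of 12393 genes. Prdx1, a peroxiredoxin, was represented only by 5 probe sets shared with Gm21399, so no signal was attributed to it. Of the 9 genes with a probe set of their own, 5 had 1 and 4 had several. RNA came from primary fibroblasts of mouse embryos at e14.5, each culture kept subconfluent for 6 h in medium equilibrated beforehand at the same oxygen level, with 5% carbon dioxide at 37 °C. The 4 groups were tri-CH1 cells in hypoxia (0.1% oxygen), tri-CH1 cells in normoxia (21% oxygen), wild-type cells in hypoxia and wild-type cells in normoxia, with 1 Affymetrix array each. In tri-CH1 cells the CH1 domain, a protein-binding module, is deleted from both alleles of the coactivator p300 and from 1 allele of its relative CBP; the labels do not say how many embryos or cultures stand behind an array. The comparisons ask how the oxygen response depends on these domains and what else differs between the genotypes.

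NRF2 is held low in unstressed cells by KEAP1, which directs its degradation. When oxidants or electrophiles modify KEAP1, NRF2 accumulates, pairs with a small MAF protein and binds antioxidant response elements in genes for glutathione synthesis, thioredoxin reduction, quinone detoxification and haem breakdown. BACH1 competes for the same elements. CBP and p300 are known coactivators of NRF2 as well as of HIF-1, and Hmox1 is known in rodents as a target of both factors.

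With 1 array per group there was no replicate error and no test; the number of arrays limits the precision. The words rose, fell, higher and lower below mean a change of 2-fold or more, with every signal below 200 set to 200 first, for a gene with a signal of at least 500 on the brighter array of the pair. Such a gene is called counted. Log2 changes run hypoxia minus normoxia or tri-CH1 minus wild type. The only internal spread was that between 2 probe sets of a gene. Its SD is given per probe set, as the SD of the difference between the 2 divided by the square root of 2. This SD was 0.29 for the log2 hypoxia change in tri-CH1 and 0.24 in wild type. It was 0.32 for the log2 genotype change in normoxia and 0.30 in hypoxia.

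The signal on the arrays was scaled by factors between 3.46 and 10.3, and the wild-type normoxia array, which had the factor of 3.46, was from another lot than the other 3. All 10 fibroblast markers reached 500 on an array, and they summed to 139532.2 and 147622.6 in tri-CH1 hypoxia and normoxia, and to 124868.3 and 131104.4 in wild-type hypoxia and normoxia. Among them Thy1 was lower in tri-CH1, 3.43-fold in normoxia and 3.78-fold in hypoxia, Dcn and Col1a1 were higher in tri-CH1 in hypoxia, 2.41-fold and 2.02-fold, and Pdgfrb fell 2.58-fold in wild-type hypoxia; their part in the results was not tested. Of 6 epithelial markers, the keratin genes Krt8, Krt18 and Krt19 reached 500. The 6 summed to 3356.9 and 1382 in tri-CH1 hypoxia and normoxia, and to 4966.5 and 1056.6 in wild-type hypoxia and normoxia. The higher sums in hypoxia came mainly from Krt19, which rose 6.32-fold in tri-CH1 and at least 19.4-fold in wild type. Krt8 went the other way. It fell at least 2.51-fold in tri-CH1 and had 332 and 398.3 in wild-type hypoxia and normoxia. Krt18 had log2 hypoxia changes of 0.18 in tri-CH1 and 0.47 in wild type. The part of these genes in the results was not tested. The defining epithelial markers Epcam and Cdh1 and the endothelial markers Pecam1, Cdh5, Tek and Tie1 were under 200 on every array. The remaining endothelial marker, Kdr, was above 200 on every array, from 302.2 in wild-type normoxia to 390.5 in tri-CH1 hypoxia. The leukocyte marker Ptprc and the 3 measured erythroid markers were under 200 on every array, while the macrophage genes Csf1r and Lyz2 reached 500. The 6 macrophage markers summed to 2020.2 and 2371 in tri-CH1 hypoxia and normoxia, and to 2197 and 2086.6 in wild-type hypoxia and normoxia. Xist had 262.6 and 318.1 in tri-CH1 hypoxia and normoxia, against 3523.2 and 3095.5 in wild type, and the Y-linked gene Eif2s3y had 363.3 and 241.8 in tri-CH1, against 22.8 and 4.3 in wild type. Embryo sex and genotype therefore cannot be told apart. The oxygen label was checked on the HIF target Bnip3, which rose 21.1-fold in tri-CH1 and 26.2-fold in wild type. The probe set of Crebbp, the CBP gene, was under 200 on every array and checks nothing of the genotype, and probe sets of the p300 gene were not analysed here.

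The promoters of Gclm and Nqo1 are printed because these are 2 of the 3 genes that passed 2-fold in a comparison below. Each window runs from 250 bases before to 50 bases after the annotated start, in the direction of the gene, from RefSeq on GRCm38.p6. The Gclm window is chr3:122245307-122245606 on the plus strand and the Nqo1 window is chr8:107403156-107403455 on the minus strand. Capitals mark the core of the antioxidant response element, TGACNNNGC, and the core of the hypoxia response element, ACGTG, each on either strand.
Gclm: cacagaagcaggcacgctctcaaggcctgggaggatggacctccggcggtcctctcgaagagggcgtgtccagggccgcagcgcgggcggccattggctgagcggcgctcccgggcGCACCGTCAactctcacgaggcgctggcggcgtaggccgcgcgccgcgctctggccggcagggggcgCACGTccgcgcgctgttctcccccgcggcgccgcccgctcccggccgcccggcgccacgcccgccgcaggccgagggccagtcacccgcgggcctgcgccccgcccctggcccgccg
Nqo1: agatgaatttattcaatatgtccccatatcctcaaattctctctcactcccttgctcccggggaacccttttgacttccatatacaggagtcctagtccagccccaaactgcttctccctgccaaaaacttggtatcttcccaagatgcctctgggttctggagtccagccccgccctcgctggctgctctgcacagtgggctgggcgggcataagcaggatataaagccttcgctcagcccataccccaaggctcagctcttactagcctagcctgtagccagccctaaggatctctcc

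In the Gclm window the antioxidant core lies on the opposite strand, with its first base at -134 from the start, and the hypoxia core on the opposite strand at -67; the matches do not overlap. The Nqo1 window holds neither run of letters. The promoter table held 8 windows for 6 of the 10 genes, and 5 windows of 5 genes had an antioxidant core: TGACTCCGC at -240 in Nfe2l2, GCTAGGTCA at 29 in Srxn1, GCACCGTCA at -134 in Gclm, GCTGAGTCA at -133 in Prdx1 and GCTTTGTCA at -92 in 1 of the 3 windows of Txnrd1. All but that of Nfe2l2 read as the reverse complement of the core. The hypoxia core was in 1 of the 8 windows, that of Gclm. Among all 32851 promoter windows of the table, 12.4% held the antioxidant core and 19.6% the hypoxia core. The table had no window for Hmox1, the remaining gene of the set past 2-fold, or for Gclc, Gsr and Gsta4. A match is a run of letters and not a measured binding site, and a window without a match says nothing of the sequence outside it.

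Hypoxia in tri-CH1 fibroblasts moved none of the 7 counted genes of the NRF2 set by 2-fold, while 3.19% of all 4358 counted genes rose and 0.987% fell. Hypoxia in wild-type fibroblasts lowered 1 of 5 counted genes, Gclm, and raised none, against 1.19% of all 4125 counted genes that fell and 3.05% that rose. In normoxia 2 of 7 counted genes, Nqo1 and Hmox1, were higher in tri-CH1 than in wild-type cells and none lower, against 3.16% of all 4333 counted genes that were higher and 3.48% that were lower. In hypoxia none of 5 differed by 2-fold between the genotypes, against 3.76% of all 4233 counted genes that were higher in tri-CH1 and 3.31% that were lower. With 5 to 7 counted genes, 1 called gene changes the share by far more than these percentages, and nothing particular to the set is read from it. All 3 differences use the wild-type normoxia array, the only one of its lot, and the part of that array in them was not tested. The comparisons of hypoxia with normoxia in wild type and of the genotypes in normoxia share it, so their values for a gene are not independent. In RNA from whole cultures, fewer cells that express a gene and less RNA per cell cannot be told apart.

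**Figure D1:**
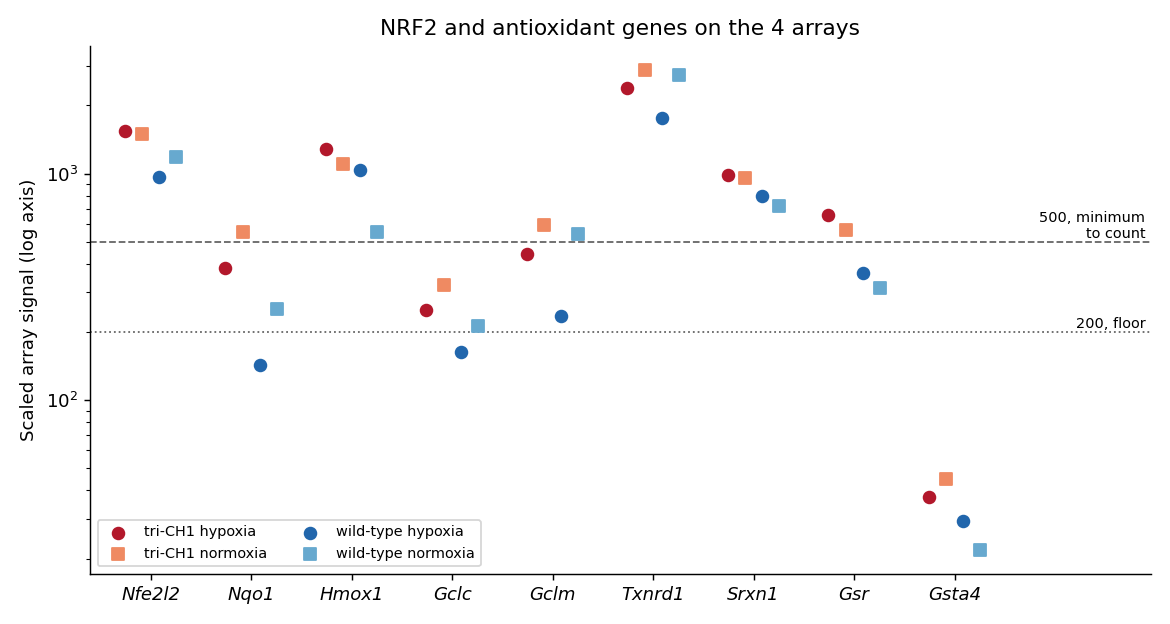
Scaled array signal (log axis) of the 9 genes with a probe set of their own, 1 point per array, using for each gene its probe set of highest mean; levels of different genes are not comparable. The wild-type hypoxia point of Gclm (236.3) and the wild-type normoxia point of Hmox1 (552.3) each stand well below the other 3 arrays, and Gsta4 lies under the floor of 200 on all 4 arrays.

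Nfe2l2, the gene of NRF2 itself, had signals of 1537.2 in tri-CH1 hypoxia and 1496.6 in tri-CH1 normoxia, against 963.3 in wild-type hypoxia and 1184.2 in wild-type normoxia. Both tri-CH1 arrays were above both wild-type arrays, and no pair differed by 2-fold. The log2 hypoxia change was 0.04 in tri-CH1 and -0.30 in wild type. The log2 genotype change was 0.34 in normoxia and 0.67 in hypoxia, the last being 1.60-fold by size. NRF2 is controlled mainly through protein stability, which these arrays do not measure.

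Hmox1 encodes the inducible haem oxygenase, which splits haem into biliverdin, iron and carbon monoxide. It had signals of 1280.1 in tri-CH1 hypoxia and 1105.3 in tri-CH1 normoxia, against 1041.1 in wild-type hypoxia and 552.3 in wild-type normoxia. The first 3 arrays lay close together and the wild-type normoxia array was low. In normoxia Hmox1 was 2.0-fold higher in tri-CH1, a log2 change of 1.00 that lies on the threshold itself, with a rank of 137 from the top among 4333 counted genes. When the arrays were scaled to the same median it was 0.78, where the median of all counted genes was -0.21, against 0.03 as deposited. In hypoxia the log2 genotype change was 0.30. The log2 hypoxia change was 0.21 in tri-CH1 and 0.91 in wild type, 1.89-fold by size and just short of the threshold. The difference of these hypoxia changes, tri-CH1 minus wild type, was -0.70, with a rank of 199 from the bottom among 4645 genes, and it also rests on the single low array.

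Nqo1 encodes a quinone reductase and is a widely used readout of NRF2 activity. Its signals were 382.1 in tri-CH1 hypoxia and 550.9 in tri-CH1 normoxia, against 143.5 in wild-type hypoxia and 252.2 in wild-type normoxia. Both tri-CH1 arrays exceeded both wild-type arrays, and as for Nfe2l2 the share of all genes with this order is not given. In normoxia Nqo1 was 2.18-fold higher in tri-CH1, a log2 change of 1.13, with a rank of 108 from the top among 4333 counted genes. In hypoxia the brighter array was under 500, so the gene was not counted there; its signal in tri-CH1 was at least 1.91-fold that in wild type, and without the floor the log2 genotype change was 1.41. This gene passed the minimum through the tri-CH1 normoxia array alone, so the count of 2 includes 1 that could pass only by being brighter in tri-CH1. The call was lost with a floor of 400, where its log2 change was 0.46, with cyclic loess, where no array reached 500, and with median scaling, at 0.91. With median scaling the median of all counted genes was -0.21. The log2 hypoxia change was -0.53 in tri-CH1, and in wild type -0.33 with the floor and -0.81 without it.

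**Figure D2:**
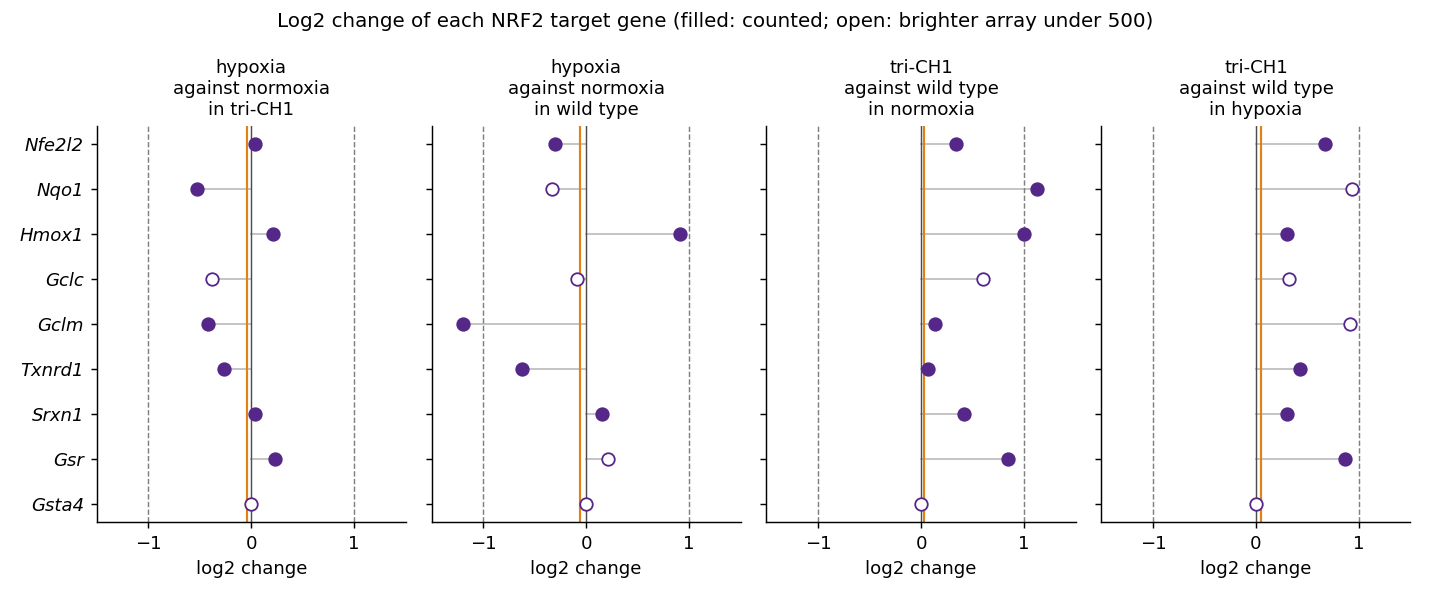
Log2 change of each gene in the 4 comparisons, with the 2-fold limits dashed and the median of all counted genes as an orange line; open circles are genes whose brighter array was under 500. In both genotype comparisons no point lies left of 0, and Gclm in wild-type hypoxia, at -1.19, is the only point past the lower limit.

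The glutathione synthesis genes are Gclc and Gclm, the catalytic and modifier subunits of glutamate-cysteine ligase, the rate-limiting enzyme. Gclm had signals of 443.6 in tri-CH1 hypoxia and 592.9 in tri-CH1 normoxia, against 236.3 in wild-type hypoxia and 539.3 in wild-type normoxia. The normoxia arrays were alike in the genotypes, and the wild-type hypoxia array was low. Gclm fell 2.28-fold in wild-type hypoxia, a log2 change of -1.19 with a rank of 24 from the bottom among 4125 counted genes, and its log2 hypoxia change was -0.42 in tri-CH1. Both hypoxia comparisons counted Gclm only through the normoxia array, so it could be called there only as a fall. With a floor of 400 the change in wild type was -0.43. The difference of the hypoxia changes, tri-CH1 minus wild type, was 0.77. The log2 genotype change was 0.14 in normoxia and 0.91 in hypoxia, where Gclm was not counted, since neither array reached 500.

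Gclc did not reach 500 on any array. Its probe set with the higher mean had signals of 249.4 in tri-CH1 hypoxia and 323.9 in tri-CH1 normoxia, against 163 in wild-type hypoxia and 213.2 in wild-type normoxia. Its other probe set had 241.5 and 219.1 in tri-CH1 hypoxia and normoxia, against 157.5 and 289.9 in wild-type hypoxia and normoxia. Both probe sets had their lowest signal in wild-type hypoxia, as Gclm did. They disagreed on the genotype change in normoxia, with log2 values of 0.60 and -0.40, so no direction is given for it.

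Gsr encodes glutathione reductase, which regenerates reduced glutathione from its disulfide with NADPH. Its probe set with the higher mean had signals of 659 in tri-CH1 hypoxia and 561.5 in tri-CH1 normoxia, against 362.8 in wild-type hypoxia and 312.3 in wild-type normoxia. The log2 genotype change was 0.85 in normoxia and 0.86 in hypoxia, under 2-fold at each oxygen level. Both comparisons counted Gsr only through the tri-CH1 array. The other probe set, under 500 on every array, gave log2 genotype changes of 0.69 in normoxia and 0.10 in hypoxia. With oxygen the first probe set changed by log2 values of 0.23 in tri-CH1 and 0.22 in wild type, and the second by -0.58 and 0.01.

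The thioredoxin branch is represented by Txnrd1, the cytosolic thioredoxin reductase, and Srxn1, sulfiredoxin, which restores overoxidised peroxiredoxins. The Txnrd1 probe set with the highest mean had signals of 2382.4 in tri-CH1 hypoxia and 2868.8 in tri-CH1 normoxia, against 1768.5 in wild-type hypoxia and 2731 in wild-type normoxia. The normoxia arrays were alike and the wild-type hypoxia array was the lowest. The log2 hypoxia change was -0.27 in tri-CH1 and -0.63 in wild type, 1.54-fold by size. A second probe set, with a mean signal of 567.2, gave -0.16 and -0.19. The third, under 500 on every array, gave 0.06 in tri-CH1 and, from a normoxia signal under 200, at least 0.05 in wild type, so the direction of the hypoxia change also depends on the probe set. The log2 genotype change in hypoxia was 0.43, 0.29 and 0.48 over the 3 probe sets, and in normoxia 0.07, 0.26 and at least 0.47.

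Srxn1 was measured by 4 probe sets. The one with the highest mean had signals of 982.3 in tri-CH1 hypoxia and 955.1 in tri-CH1 normoxia, against 796.8 in wild-type hypoxia and 716.6 in wild-type normoxia. Its log2 hypoxia change was 0.04 in tri-CH1 and 0.15 in wild type, and its log2 genotype change 0.41 in normoxia and 0.30 in hypoxia. For the next 2 probe sets by mean, the log2 changes ranged from -0.18 to 0.19 with oxygen and from -0.25 to 0.12 by genotype. The remaining probe set had 150.6 in tri-CH1 hypoxia and 467.6 in tri-CH1 normoxia, against 266.8 in wild-type hypoxia and 258 in wild-type normoxia. Its log2 hypoxia change in tri-CH1, at least as far below 0 as -1.23, was not seen by the other 3 probe sets, and none of its signals reached 500.

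Gsta4, a glutathione transferase that conjugates the lipid peroxidation product 4-hydroxynonenal, had signals of 37.4 in tri-CH1 hypoxia and 44.8 in tri-CH1 normoxia, against 29.4 in wild-type hypoxia and 21.9 in wild-type normoxia. All 4 signals were under the floor, so no change is given for it.

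**Figure D3:**
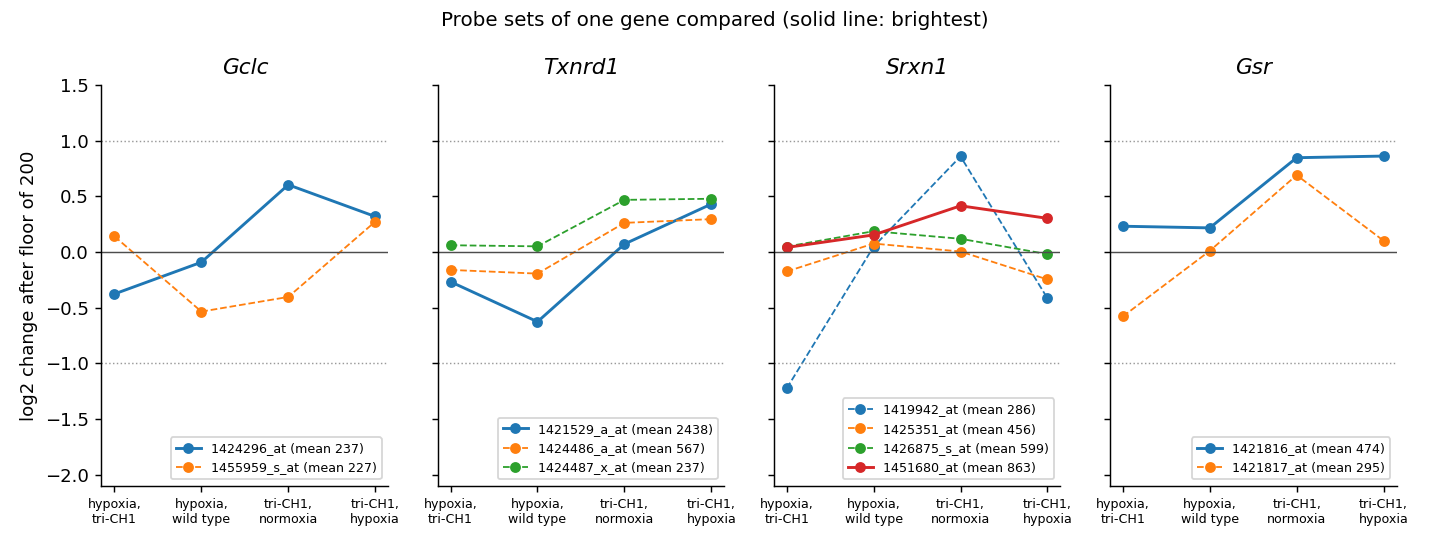
Log2 change after the floor of 200 for each probe set of the 4 genes that had several, in the comparisons of hypoxia with normoxia (left 2 positions) and of tri-CH1 with wild type (right 2 positions); a line joins the values of 1 probe set. The 3 Txnrd1 probe sets lie above 0 in both genotype comparisons, while 1 of the 4 Srxn1 probe sets stands apart at -1.23 for hypoxia in tri-CH1.

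By genotype, the log2 change was above 0 for all 7 counted genes in normoxia, against 53.5% of all counted genes, and for all 5 in hypoxia, against 55.1%. Neither count held under every setting: with median scaling Gclm was at -0.08 and Txnrd1 at -0.15 in normoxia, and with the mean over all probe sets Srxn1 was at -0.20 in hypoxia. Median scaling also moved the median of all counted genes in normoxia to -0.21. The median was 0.41 in normoxia, against 0.03 over all counted genes, and 0.43 in hypoxia, against 0.05. These medians describe the genes that passed the minimum signal; Nqo1 and Gsr passed it only through a tri-CH1 array, and the genes were chosen with earlier results known, so the medians support no statement about the set. Of the 7 genes, Nfe2l2, Hmox1, Txnrd1 and Srxn1 had 500 or more on all 4 arrays, and their log2 genotype changes were 0.34, 1.00, 0.07 and 0.41 in normoxia and 0.67, 0.30, 0.43 and 0.30 in hypoxia. For Srxn1 the direction was not shared by all probe sets. The scaled background was 343 in tri-CH1 normoxia, against 139 in wild-type normoxia, and 393 in tri-CH1 hypoxia, against 246 in wild-type hypoxia; its part in these values was not tested.

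With oxygen, the median log2 change was 0.04 over 7 counted genes in tri-CH1, against -0.04 over all counted genes, and -0.30 over 5 in wild type, against -0.06. In tri-CH1 4 genes were above 0 and 3 below, with 45.9% of all counted genes above 0, from -0.53 for Nqo1 to 0.23 for Gsr. In wild type 2 were above 0 and 3 below, with 43.1% of all counted genes above 0, from -1.19 for Gclm to 0.91 for Hmox1. Nqo1 and Gclm in tri-CH1, and Gclm in wild type, passed the minimum signal only through the normoxia array. They could enter only with a change below 0, so these counts and medians describe only the genes that passed. Without them, tri-CH1 had Txnrd1 at -0.27, against Nfe2l2 at 0.04, Hmox1 at 0.21, Srxn1 at 0.04 and Gsr at 0.23. Wild type had Nfe2l2 at -0.30 and Txnrd1 at -0.63, against Hmox1 at 0.91 and Srxn1 at 0.15. The genes left thus had no single direction with oxygen in either genotype. The tri-CH1 minus wild-type difference of the hypoxia changes had a median of 0.01 over 7 genes, against 0.03 over all 4645, with 4 above 0 and 3 below, and 53.0% of the 4645 above 0.

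The rest of the pathway was taken from 5 lists of 91 genes, of which 81 had a probe set of their own. By hypoxia, 1 of 52 counted genes rose and none fell in tri-CH1, where 3.19% of all counted genes rose and 0.987% fell. In wild type 2 of 51 rose and none fell, where 3.05% of all counted genes rose and 1.19% fell. By genotype in normoxia, none of 52 was higher and 2 were lower in tri-CH1, where 3.16% of all counted genes were higher and 3.48% lower. In hypoxia 1 of 52 was higher and 2 lower, where 3.76% of all counted genes were higher and 3.31% lower. The median log2 change with oxygen was -0.08 in tri-CH1 and -0.05 in wild type, against -0.04 and -0.06 over all counted genes. The median log2 genotype change was -0.02 in normoxia and 0.02 in hypoxia, against 0.03 and 0.05 over all counted genes.

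Maff, a small MAF protein and so a potential partner of NRF2, was past 2-fold in all 4 comparisons. It had signals of 668.6 in tri-CH1 hypoxia and 111.1 in tri-CH1 normoxia, against 1411.5 in wild-type hypoxia and 625.6 in wild-type normoxia. Maff rose with hypoxia in both genotypes, at least 3.34-fold in tri-CH1 and 2.26-fold in wild type. It was lower in tri-CH1 at both oxygen levels, at least 3.13-fold in normoxia and 2.11-fold in hypoxia. Of the other regulators, Keap1 had 560.8 and 581.4 in tri-CH1 hypoxia and normoxia, against 512.2 and 478.4 in wild type, and none of its pairs differed by 2-fold. Bach1, the competing repressor, had 682.2 and 523.6 in tri-CH1 hypoxia and normoxia, against 893.3 and 763 in wild type, with log2 genotype changes of -0.54 in normoxia and -0.39 in hypoxia.

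Among 17 counted glutathione genes only Gsto1, an omega-class glutathione transferase, passed 2-fold in a comparison. It had 4162.2 and 4757.5 in tri-CH1 hypoxia and normoxia, against 11401.6 and 11608.1 in wild-type hypoxia and normoxia. Gsto1 was lower in tri-CH1, 2.44-fold in normoxia and 2.74-fold in hypoxia, and a second probe set gave log2 genotype changes of -1.64 and -1.60. None of the counted thioredoxin, peroxiredoxin, superoxide dismutase and catalase genes (10 or 11 by comparison) and none of 9 NADPH supply genes passed 2-fold in any comparison. The superoxide dismutase gene Sod3 was not counted, since it stayed just under 500. It had 483.3 and 494.4 in tri-CH1 hypoxia and normoxia, against 33.5 and 93.7 in wild-type hypoxia and normoxia. Its signal in tri-CH1 was at least 2.47-fold that in wild type in normoxia and at least 2.42-fold in hypoxia. Txn1, thioredoxin itself, had 7917.9 and 10391.8 in tri-CH1 hypoxia and normoxia, against 8266.4 and 10252.9 in wild-type hypoxia and normoxia.

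Among the other NRF2 targets, Ugdh, which makes UDP-glucuronic acid for conjugation, rose 2.48-fold in wild-type hypoxia. Its signals were 9225.4 in tri-CH1 hypoxia and 5003.6 in tri-CH1 normoxia, against 7901.3 in wild-type hypoxia and 3180.7 in wild-type normoxia, with a log2 hypoxia change of 0.88 in tri-CH1. Ephx1, the microsomal epoxide hydrolase, had 2190.1 in tri-CH1 hypoxia and 1759.2 in tri-CH1 normoxia, against 934.4 in wild-type hypoxia and 1385.4 in wild-type normoxia. It was 2.34-fold higher in tri-CH1 in hypoxia and had a log2 genotype change of 0.34 in normoxia. By the probe set of highest mean, Ephx1 had its lowest signal in wild-type hypoxia, as Nfe2l2, Nqo1, Gclm and Txnrd1 had. Hmox1, Srxn1 and Gsr had theirs in wild-type normoxia. Not all probe sets shared this. Those of Srxn1 with 411 and 150.6 in tri-CH1 hypoxia were lowest there, and that of Txnrd1 with 176.7 in wild-type normoxia was lowest there. Nqo1 and Gsr were counted only through a tri-CH1 array, and the share of all genes lowest on each array was not computed. Nothing is read from this pattern.

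**Figure D4:**
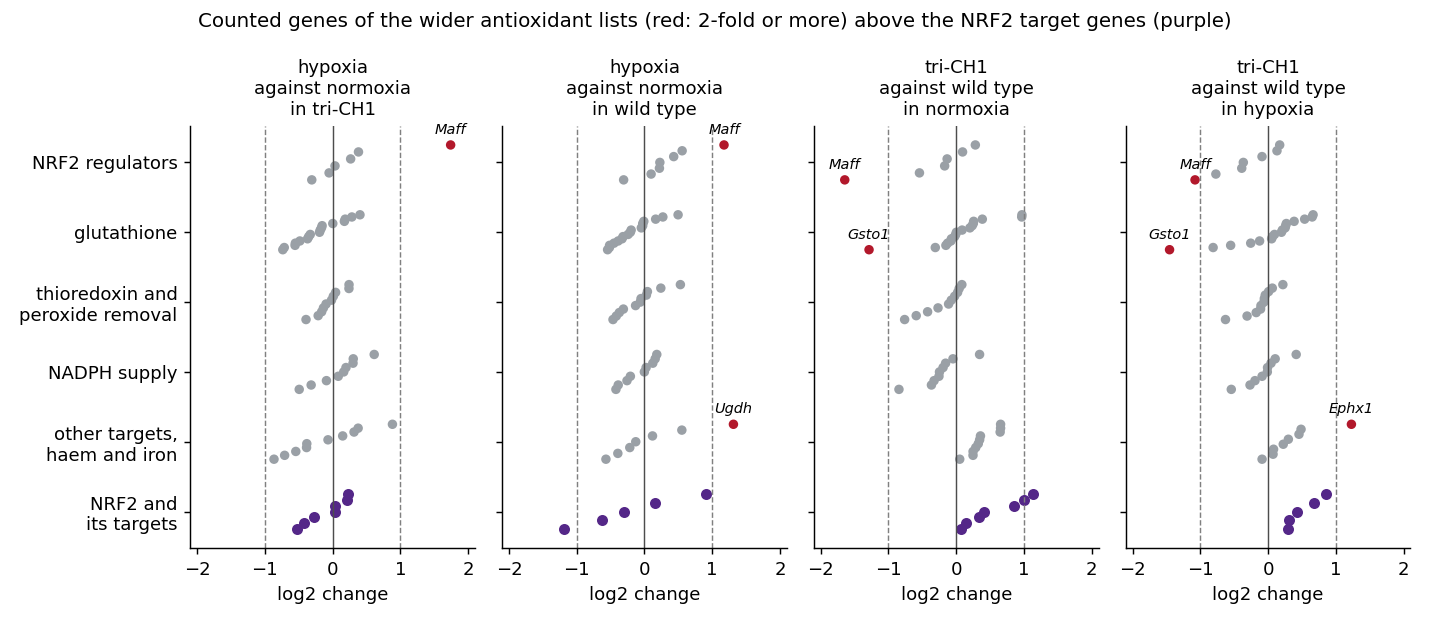
Log2 changes of the counted genes of the 5 wider lists (grey, red from 2-fold on) and of the NRF2 set (purple) in the 4 comparisons. Maff is past the limit in all 4 panels and Gsto1 in both genotype panels, while most genes of each list lie within 1 log2 unit of 0.

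Nqo1 had the widest range over the 4 arrays among the 9 genes, 1.46 log2 units after the floor. The genes with the nearest profile among 4645, by Euclidean distance of log2 signals centred on their mean over the 4 arrays, were Bckdhb at 0.18, Ap3s2 at 0.23 and Lancl2 at 0.23. Lancl2 had 794 and 925.1 in tri-CH1 hypoxia and normoxia, against 367.6 and 446.8 in wild-type hypoxia and normoxia. With 4 arrays, such likeness is a description of these arrays.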

How the data were processed

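Per the labels, the authors used the statistical algorithm of Affymetrix, which subtracts background, for 1 intensity value per probe set, and scaled each array to a target of 500; the deposited intensity values are linear, with medians of 190.2 to 221.6. Software and version are not given in the sources used here. Genes were named through the platform annotation: 20380 probe sets had 1 symbol, 691 several and 1555 none, and 64 were controls; 20351 matched the gene reference by gene number. Each gene took its probe set with the highest mean signal. Signals under 200 were raised to 200; a gene was counted from 500 on the brighter array and called from 2-fold. Groups came from the sample titles. No test was run. The calling rule was tried only on simulated bright signals with changes larger than those called in the NRF2 set. That trial says nothing of dim signals or of calls near the 2-fold limit. The spread between probe sets used the 2 brightest counted probe sets of a gene, in 1339 to 1505 genes. The genes and lists were chosen with earlier results of these data known. Named were all members, genes of the wider lists past 2-fold, and the 3 nearest profiles to the member of widest range; Bnip3, Crebbp and single list genes without a call were chosen after their values were seen. There were 10 alternatives and 1 added after seeing the data. Software was limma 3.58.1 in R 4.3.3, and Python 3.11.15 with numpy 2.4.6, matplotlib 3.10.9 and pandas 2.3.3.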

Additional observations from a re-analysis of the deposited data

Results flagged for a closer look

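With 1 array per group no array could be set against others of its group. In the wider lists 4 of 49 genes counted in both genotypes had hypoxia changes of opposite sign in them, each larger than the SD between probe sets; this difference was not tested. The same held for 134 of all 3838 genes counted in both, which is 3.49%, against 8.16% of the lists, and nothing particular to the lists is read from 4 genes. The difference of the hypoxia changes, tri-CH1 minus wild type, was -0.86 for Cul3, the ubiquitin ligase scaffold that works with KEAP1, with log2 changes of -0.31 in tri-CH1 and 0.56 in wild type. It was -1.05 for the peroxidase Gpx8, with -0.55 in tri-CH1 and 0.50 in wild type. It was 0.79 for Slc3a2, a subunit of the cystine transporter, with 0.40 in tri-CH1 and -0.39 in wild type. It was 0.88 for Ephx1, with 0.32 in tri-CH1 and -0.57 in wild type. None of these single changes reached 2-fold. None of the 5 genes of the NRF2 set counted in both genotypes met the same condition.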

How the results depend on the processing

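No paired analysis was possible because each group has 1 array. The count of genes of the NRF2 set past 2-fold stayed at 0 for hypoxia in tri-CH1 and for the genotypes in hypoxia under all 11 alternatives. For hypoxia in wild type it was 1, but 0 with a floor of 400 and 0 with a minimum of 1000. For the genotypes in normoxia it was 2, but 1 with a floor of 400, 1 with a minimum of 1000, 1 with cyclic loess and 0 with median scaling. A minimum of 1000 leaves 3 genes, and a floor of 400 compresses every signal below it. The median hypoxia change in tri-CH1 was -0.27 with the mean over all probe sets, against 0.04; the other medians moved by less than the SD between probe sets. Of 480 values of single genes, 450 moved by less than that SD and 30 by more, and no called value turned its sign. Many of the 450 could not move. The minimum signal does not enter a log2 change, and a gene with 1 probe set is unchanged by the choice of probe sets. Gsta4 stayed at 0 wherever a floor was used. The 450 is therefore no measure of how stable the values are. Of uncalled genotype values, Gclm and Txnrd1 in normoxia turned below 0 with median scaling, at -0.08 and -0.15, and Srxn1 in hypoxia with the mean over all probe sets, at -0.20. With median scaling the median genotype change of all counted genes in normoxia was -0.21. The alternative with the mean over probe sets at 500 or more was chosen after seeing the data. Leaving out an array was not possible. Signals near or under the floor limit Gclc, Nqo1, Gsta4 and, at 236.3 in wild-type hypoxia, Gclm.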
